A study of Homo sapiens with 8 samples.

Results

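Nucleic acid deaminases remove an amino group from a base in RNA or DNA. The genes described here are ADAR, ADARB1, ADAT1, ADAT2, ADAT3, APOBEC3B, APOBEC3C, APOBEC3F and APOBEC3G, taken by gene symbol as a named family. All 9 were among the 19414 coding genes listed for each library, and 8 had enough reads to be tested. The assay was TT-seq, which reads RNA that took up 4-thiouridine while it was being made, and the cells were U2OS, a human osteosarcoma line. The genotype labels were Zab + MYC O/E, MYC O/E (MYC overexpression), Zab and WT, with 2 libraries of each. All libraries came from the same line, and neither the construct behind Zab, the promoter that drives MYC nor the number of clones is given in the sources used here. The series' design text writes Zab with Greek letters, as Zαβ. No label says that the replicates were separate cultures, so each p-value reflects only spread between libraries, partly borrowed from genes of like level. That spread may be technical. In all 4 groups the replicates differed by no more than about the sampling noise of reads counted in pairs (chi-square per gene of 1.99 to 2.05, where that noise gives 2). This does not tell whether the pairs were separate cultures. Each pair was kept as 2 samples, and the p-values may be smaller than separate cultures would give.

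ADAR and ADARB1 turn adenosine into inosine in double-stranded RNA, and ADAT1, ADAT2 and ADAT3 do so in transfer RNA. The APOBEC3 enzymes turn cytidine into uridine, mostly in single-stranded DNA of viruses and of the cell itself. ADAR makes a long form, which interferon induces and which carries a domain that binds left-handed Z-RNA and Z-DNA, and a shorter form made in most cells. Zαβ is the usual name for the pair of such domains in ADAR. Loss of ADAR editing is known to let the cell's own double-stranded RNA set off interferon and RNA-sensing pathways.

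Libraries held between 1839960 and 4072059 reads in coding exons, and levels are given as CPM, counts scaled to a common library size with TMM. Those labelled Zab stood apart, with 6.44 to 6.66 coding-exon reads per 100 tags, against 13.1 to 13.8 in the other 6. MYC, the check of the overexpression label, had 747 and 768 CPM in the libraries labelled Zab + MYC O/E, 6564 and 6576 CPM in MYC O/E, 933 and 1030 CPM in Zab, and 772 and 747 CPM in WT. At MYC the libraries labelled Zab + MYC O/E thus overlapped with those labelled WT, against their label. Groups are named by their labels throughout. Whether labels were exchanged between groups, which would change the meaning and direction of every comparison with those groups, was not tested. Markers of mesenchymal cells summed to 2708 to 5172 CPM per library, with 7 of 8 tested, and COL1A2 was at 0 in the WT libraries. They were at 3931 to 4016 CPM in Zab + MYC O/E, 2708 to 2756 in MYC O/E, 4972 to 5172 in Zab and 4131 to 4292 in WT. Epithelial markers (4 of 6 tested) summed to 1259 to 1281 CPM in Zab + MYC O/E, 865 to 903 in MYC O/E, 2384 to 2518 in Zab and 1362 to 1395 in WT. EPCAM, CDH1 and KRT5 were at 0 in Zab, and KRT5 also in MYC O/E, so the epithelial sum in Zab came from the other listed genes. Neural markers (5 of 6 tested) summed to 88.1 CPM in both Zab + MYC O/E libraries, 64.9 to 65.2 in MYC O/E, 150 to 152 in Zab and 89.3 to 96.7 in WT, with GFAP at 0 outside Zab. These 3 sums were highest in Zab and lowest in MYC O/E, as was APOBEC3B, and their part in the results was not tested. Markers of lymphoid and myeloid cells, where APOBEC3G is usually high, summed to at most 3.23 CPM, and none of the 9 had enough reads to be tested. On the authors' deposited scale the median gene moved by log2 -0.63 in Zab over WT, 0.47 in MYC O/E over WT, 0.27 in Zab + MYC O/E over WT, -0.19 in Zab + MYC O/E over MYC O/E and 0.89 in Zab + MYC O/E over Zab. All changes below are relative to TMM scaling. In bulk libraries, less RNA of a gene per cell and fewer cells that make it cannot be told apart.

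ADAR was high in the libraries labelled Zab + MYC O/E and WT, and low in those labelled MYC O/E and Zab. The values were 32050 and 32145 CPM in Zab + MYC O/E, 444 and 462 CPM in MYC O/E, 527 and 575 CPM in Zab, and 33754 and 33707 CPM in WT. No library of the low pair of groups came near one of the high pair, and within each group the replicates lay close together. ADAR took 3.43% ± 0.00393 of coding-exon reads in Zab + MYC O/E, 0.0452% ± 0.00116 in MYC O/E, 0.0497% ± 0.00266 in Zab and 3.51% ± 0.00523 in WT (SD, n = 2 each). Ranked per kilobase among all genes, it stood in place 2 in each library labelled Zab + MYC O/E or WT. Its places were 1100 and 1032 in MYC O/E and 1016 and 950 in Zab. Relative to WT, newly made ADAR RNA fell by 5.93 ± 0.029 on the log2 scale in the libraries labelled Zab (SE; limma adjusted p = 4.38e-40), which leaves WT 61.2-fold above Zab. It fell by 6.22 ± 0.029 in those labelled MYC O/E (SE; limma adjusted p = 1.28e-40), which leaves WT 74.5-fold above MYC O/E.

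**Figure D1:**
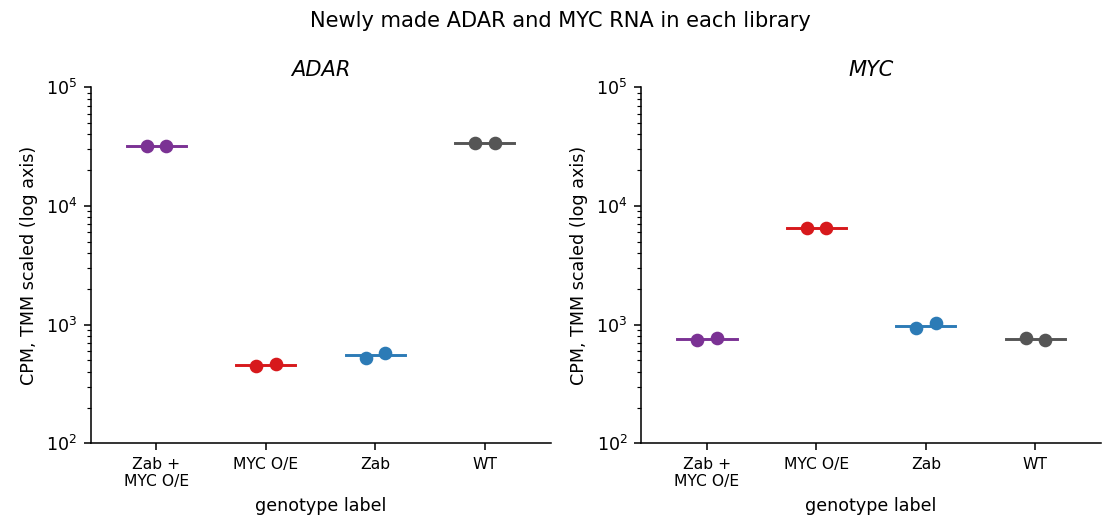
Newly made ADAR RNA (left) and MYC RNA (right) in each library, in TMM-scaled CPM on a log axis, by genotype label. Points are libraries and bars the means of 2. ADAR averages 32098 CPM in Zab + MYC O/E, 453 CPM in MYC O/E, 551 CPM in Zab and 33730 CPM in WT, while MYC is high in MYC O/E alone among these 4 groups.

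The libraries labelled Zab + MYC O/E held ADAR far above those labelled MYC O/E and those labelled Zab. These differences rest on labels that MYC goes against in Zab + MYC O/E, and whether a Zab construct adds reads at ADAR was not tested. Zab + MYC O/E was 70.8-fold above MYC O/E, a log2 change of 6.14 ± 0.029 (SE; limma adjusted p = 1.74e-40). It was 58.3-fold above Zab, a log2 change of 5.86 ± 0.029 (SE; limma adjusted p = 6.05e-40). The Zab effect with MYC O/E minus the Zab effect without it, called the interaction here, was 12.08 ± 0.041 for ADAR (SE, log2; limma adjusted p = 2.68e-44). Set against WT, Zab + MYC O/E was at 0.952 of the WT level, a log2 change of -0.072 ± 0.029 (SE; limma adjusted p = 0.504). The groups did not overlap, and the call for this small difference depended on the tool. The adjusted p for ADAR in Zab + MYC O/E over WT was 0.0312 in edgeR on the reads and 0.000237 in DESeq2. It was 0.00145 in limma without both Zab libraries, and the change turned to log2 0.21 on the deposited scale (adjusted p = 0.000425). These comparisons share their control libraries, so they are not independent of each other.

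The transcript that stood for ADAR differed between libraries, as it did for 8961 of the 19414 genes listed. On hg19 ADAR is a minus-strand gene of chromosome 1, and the counting kept 1 transcript per gene in each library separately. NM_001111 (154554534 to 154580662, 6580 bases of exon) was kept in 5 libraries, which were replicate 1 of Zab + MYC O/E, replicate 1 of MYC O/E, replicate 2 of Zab and both WT replicates. NM_001025107 (154554534 to 154600447, 6502 bases of exon) was kept in replicate 2 of MYC O/E and replicate 1 of Zab. NM_001193495 (154554534 to 154578729, 6633 bases of exon) was kept in replicate 2 of Zab + MYC O/E. The replicates differed in their transcript in 3 of the 4 groups while their levels lay close together, and NM_001111 was kept in libraries of high and of low ADAR. The transcripts share their 3' end and differ in their start, which in NM_001111 and NM_001193495 lies 19785 and 21718 bases downstream of that in NM_001025107. The log2 change of ADAR per kilobase of the transcript kept was -5.91 in Zab over WT and -6.19 in MYC O/E over WT.

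Since ADAR is the member that moved most, 2 of its promoter windows are shown, each the 250 bases before an annotated start. They come from RefSeq on GRCh38.p14, a later build than the files', and positions were not converted between builds. The upstream window lies at chr1:154627998-154628247 and the other, 19200 bases downstream, at chr1:154608798-154609047, both on the minus strand and written 5' to 3'. Capitals mark CACGTG, the E-box letters that MYC with MAX is known to bind, searched on both strands, on which it reads the same.

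ADAR upstream start: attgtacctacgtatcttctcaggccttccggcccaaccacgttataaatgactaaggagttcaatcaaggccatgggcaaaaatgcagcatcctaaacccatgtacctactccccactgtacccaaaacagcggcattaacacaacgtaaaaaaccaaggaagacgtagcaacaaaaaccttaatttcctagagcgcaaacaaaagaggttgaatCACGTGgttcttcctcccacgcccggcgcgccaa

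ADAR downstream start: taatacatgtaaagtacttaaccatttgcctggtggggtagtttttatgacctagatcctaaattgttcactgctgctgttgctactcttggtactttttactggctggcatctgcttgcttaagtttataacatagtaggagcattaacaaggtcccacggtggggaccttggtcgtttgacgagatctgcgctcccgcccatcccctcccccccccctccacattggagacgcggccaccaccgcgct

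The E-box in the upstream window begins 34 bases before the start. A further ADAR window, 26 bases downstream of the upstream one, holds the same E-box. Of 35116 windows of this length in the RefSeq table, 6.34% hold CACGTG, and 7.73% of genes have it in a window. Promoter windows were matched for 5 of the 9 members, 11 windows in all, and ADAR was the only 1 of the 5 with CACGTG. GAAANNGAAA, the core letters of an interferon response element, was searched on both strands and was found in no window of the 5 members, against 3.02% of all windows. These letters say nothing about binding, and starts outside these windows were not searched. The 19200 bases between the ADAR windows shown differ from the 19785 and 21718 bases between the hg19 starts. The downstream window was thus not matched to a transcript kept.

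No neighbour of ADAR that could be tested passed the test. Within 250 kb of ADAR lie 7 other coding genes of the files, and 3 of them had enough reads to be tested. UBE2Q1, a ubiquitin-conjugating enzyme gene 23.4 kb downstream of ADAR, had 88.0 ± 11.9 CPM in Zab + MYC O/E, 90.7 ± 4.73 in MYC O/E, 92.3 ± 17.8 in Zab and 96.6 ± 16.7 in WT (SD, n = 2 each). ATP8B2, a lipid flippase gene, had 116 ± 8.19 CPM in Zab + MYC O/E, 110 ± 0.199 in MYC O/E, 120 ± 3.84 in Zab and 111 ± 15.8 in WT. IL6R, the interleukin-6 receptor gene, had 16.9 ± 3.01 CPM in Zab + MYC O/E, 17.6 ± 2.28 in MYC O/E, 14.4 ± 0.0323 in Zab and 17.1 ± 1.42 in WT. Limma called none of the 3 in any of the 6 comparisons. The lowest adjusted p among them was 0.425, for ATP8B2 in Zab over WT. CHRNB2, a receptor subunit gene 2.05 kb downstream, had 28 reads in all 8 libraries together, and SHE, TDRD10 and KCNN3 had 12, 2 and 23.

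**Figure D2:**
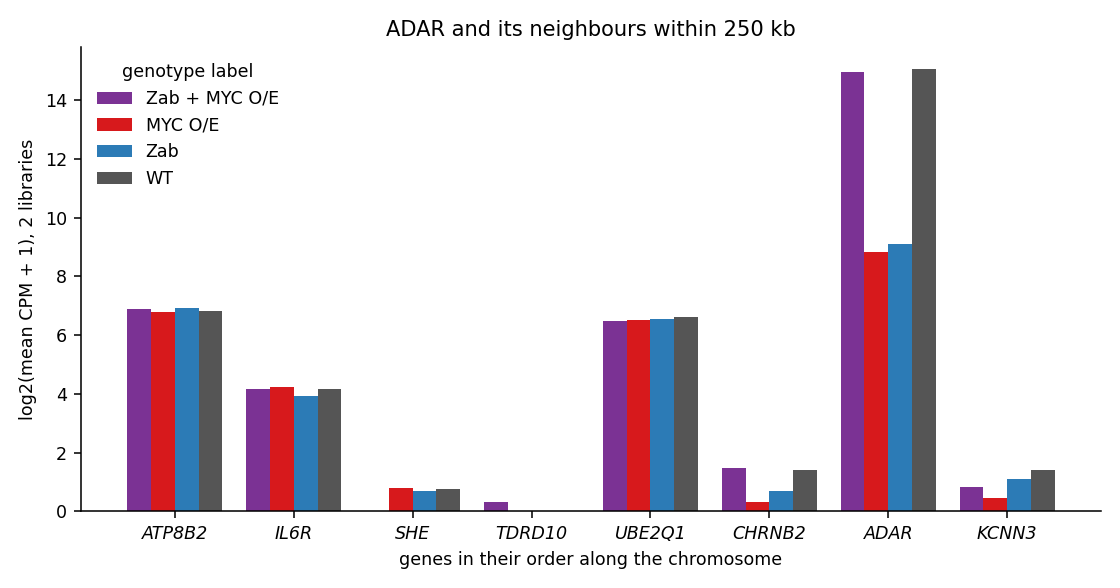
ADAR and the 7 coding genes within 250 kb of it, in their order along the chromosome, as log2(mean CPM + 1) of 2 libraries per genotype label. The ADAR bars of Zab + MYC O/E and WT stand far above those of MYC O/E and Zab, while each of UBE2Q1, ATP8B2 and IL6R has bars of nearly the same height.

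By level, ADAR outweighed the other members where it was high and was still the highest where it was low. Per kilobase it had 4859 ± 17.4 CPM in Zab + MYC O/E, 69.3 ± 2.46 in MYC O/E, 84.2 ± 4.39 in Zab and 5126 ± 4.98 in WT (SD, n = 2 each). Of the summed CPM of the 9 members it made up 99.0% ± 0.0194 in Zab + MYC O/E, 65.4% ± 0.989 in MYC O/E, 61.8% ± 2.03 in Zab and 99.1% ± 0.0559 in WT (SD, n = 2 each). Without ADAR the other 8 members summed to 308 and 318 CPM in Zab + MYC O/E, 242 and 237 CPM in MYC O/E, 346 and 333 CPM in Zab, and 314 and 287 CPM in WT. The sum was thus lowest in MYC O/E and highest in Zab, with no overlap between these groups and the rest. Per kilobase, APOBEC3C came next in Zab + MYC O/E (70.3 ± 0.801), MYC O/E (51.3 ± 1.93) and WT (67.9 ± 5.58), and APOBEC3B after it. In Zab, APOBEC3B (59.5 ± 5.54 CPM per kilobase) and APOBEC3C (59.4 ± 3.41) overlapped and cannot be ordered. ADAT1, APOBEC3F, ADAT3, ADARB1 and ADAT2 followed at 0.884 to 6.07 CPM per kilobase, and many neighbours in that order overlapped. APOBEC3G was last in all 4 groups.

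**Figure D3:**
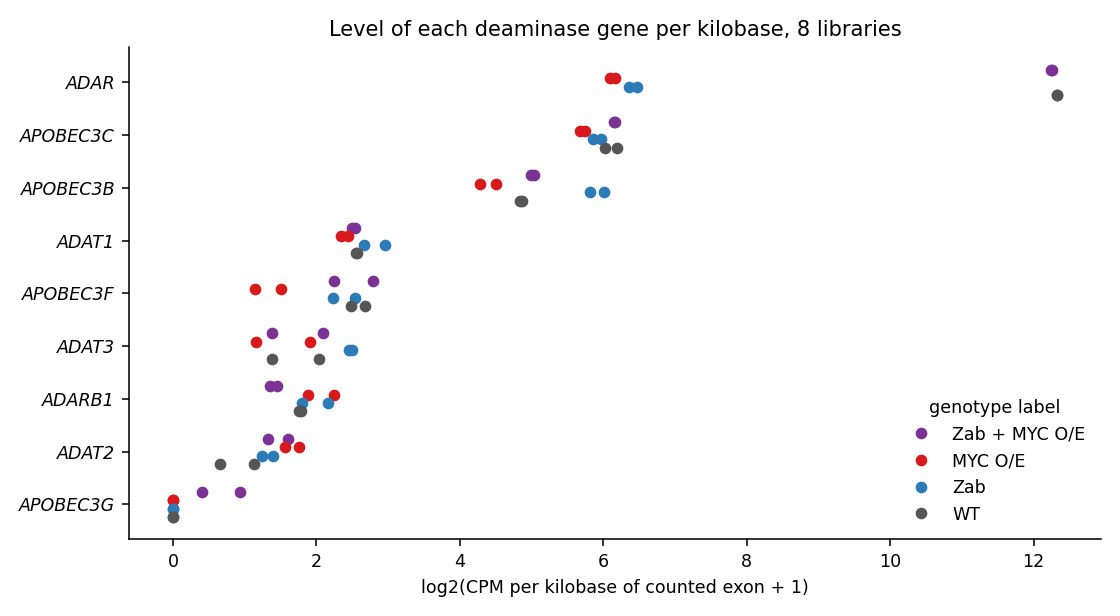
Level of each of the 9 deaminase genes in the 8 libraries, as log2(CPM per kilobase of counted exon + 1), coloured by genotype label. ADAR falls into a high pair of groups (Zab + MYC O/E and WT) and a low pair (MYC O/E and Zab), and even in the low pair it lies above APOBEC3C of the same group.

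Calls among the 8 members tested are given beside the share of all 11985 tested genes that were called. A gene was called at a limma adjusted p under 0.05 over all genes. In Zab over WT, 1 member rose (APOBEC3B) and 1 fell (ADAR), against 49.7% of all genes called (23.8% higher and 25.9% lower). In MYC O/E over WT, 1 rose (ADAT2) and 4 fell (ADAR, APOBEC3B, APOBEC3C and APOBEC3F), against 44.0% (22.2% higher and 21.8% lower). For Zab + MYC O/E over MYC O/E, 4 rose (ADAR, APOBEC3B, APOBEC3C and APOBEC3F) and 1 fell (ADARB1), against 44.5% (21.8% higher and 22.7% lower). For Zab + MYC O/E over Zab, 2 rose (ADAR and APOBEC3C) and 2 fell (ADARB1 and APOBEC3B), against 49.9% (25.8% higher and 24.1% lower). In the interaction 3 were above 0 (ADAR, APOBEC3C and APOBEC3F) and 1 below (ADARB1), against 53.0% (28.2% above and 24.8% below). Limma called no member in Zab + MYC O/E over WT, against 0.601% of all genes (0.134% higher and 0.467% lower). At an unadjusted p under 0.05 it held ADAR and ADAT2, and edgeR and DESeq2 on the reads called 1 member each, ADAR. The median log2 change of the 8 members was 0.23 in Zab over WT and -0.31 in MYC O/E over WT, where the median over all genes was -0.048 and -0.0052.

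Many genes did not overlap between pairs of groups, so lack of overlap is common here. Among the 8 tested members, 5 did not overlap in Zab over WT, where 71.4% of all genes did not. In MYC O/E over WT it was 7 members and 73.6% of genes, and in Zab + MYC O/E over WT 5 members and 39.7%. Between Zab + MYC O/E and MYC O/E it was 6 members and 75.5% of genes, and in Zab + MYC O/E over Zab 6 members and 73.0%.

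**Figure D4:**
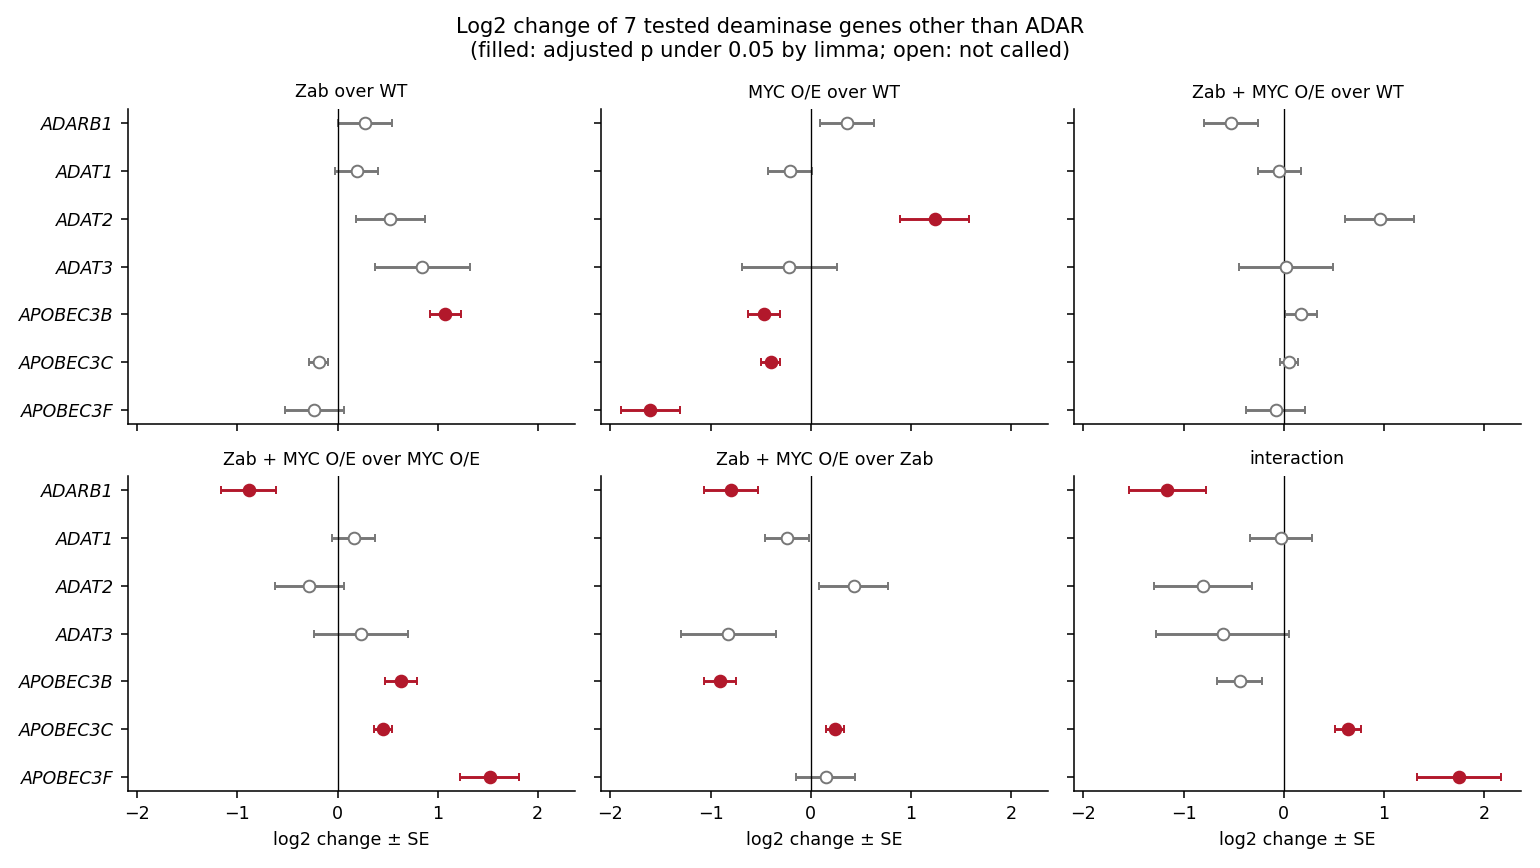
Log2 change with its SE for the 7 tested deaminase genes other than ADAR, in the 6 comparisons. Filled red points have a limma adjusted p under 0.05 and open points do not. The APOBEC3 genes lie left of 0 in MYC O/E over WT and right of 0 in Zab + MYC O/E over MYC O/E, and no point is filled in Zab + MYC O/E over WT. On the deposited scale APOBEC3B and APOBEC3C turn to 0.018 and 0.094 in MYC O/E over WT.

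ADARB1, the second RNA adenosine deaminase with known activity, was lowest in the libraries labelled with both changes. It lies on the plus strand of chromosome 21 (hg19 46494495 to 46646475). It had 10.8 and 12.1 CPM in Zab + MYC O/E, 26.3 and 18.5 CPM in MYC O/E, 17.4 and 24.4 CPM in Zab, and 17.1 and 16.7 CPM in WT. Both Zab + MYC O/E values lie below all 6 others. ADARB1 fell by 0.89 ± 0.27 in Zab + MYC O/E over MYC O/E (SE, log2; limma adjusted p = 0.00909) and by 0.80 ± 0.27 in Zab + MYC O/E over Zab (adjusted p = 0.0169). Against WT the change was -0.53 ± 0.27 (SE; limma adjusted p = 0.690). The interaction was -1.16 ± 0.39 (SE; limma adjusted p = 0.0130). On the deposited scale the change in Zab + MYC O/E over Zab was 0.060, of opposite sign. Its reads were few, 29 to 102 per library, and the calls rested on single libraries. Without replicate 1 of MYC O/E the adjusted p in Zab + MYC O/E over MYC O/E was 0.163, and without replicate 1 of Zab + MYC O/E it was 0.0702. Over Zab it was 0.128 without replicate 2 of Zab and 0.103 and 0.0502 without replicate 1 and replicate 2 of Zab + MYC O/E. The ADARB1 interaction was not called without replicate 1 of MYC O/E (adjusted p = 0.0989), on the deposited scale (-0.78, adjusted p = 0.0855), with library totals (-0.88, adjusted p = 0.0533) or with the WT and Zab + MYC O/E pairs as 1 sample each (adjusted p = 0.0866). Per kilobase, ADAR stood 3150-fold and 2806-fold above ADARB1 in the Zab + MYC O/E libraries and 18.0-fold and 26.5-fold in MYC O/E. The ratio was 32.7 and 25.0 in Zab and 2100 and 2146 in WT.

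ADAT2 is the catalytic subunit of the pair that makes inosine at the wobble base of transfer RNA, and ADAT3 is its partner. ADAT2 had 14.9 and 11.1 CPM in Zab + MYC O/E, 14.4 and 17.5 CPM in MYC O/E, 10.2 and 8.50 CPM in Zab, and 8.71 and 4.27 CPM in WT. Both MYC O/E values lie above those of Zab and of WT. ADAT2 rose by 1.24 ± 0.35 in MYC O/E over WT (SE, log2; limma adjusted p = 0.00449), a 2.46-fold difference in mean CPM. It rests on 127 reads in MYC O/E and 39 in WT. The adjusted p for ADAT2 was 0.116 without replicate 2 of WT and 0.0681 without replicate 2 of MYC O/E. In Zab + MYC O/E over WT the change was 0.96 ± 0.35 (SE; limma adjusted p = 0.378), and on the deposited scale it was called (1.21, adjusted p = 0.0179).

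The transcript kept for ADAT2 differed between Zab and the other labels. A transcript that differed between libraries was common, at 8961 of the 19414 genes listed. Whether the start used differs in Zab was not tested. NM_182503 (hg19 chromosome 6, minus strand, 143743969 to 143771832, 6233 bases of exon) was kept in both libraries labelled Zab. NM_001286259 (143743969 to 143763814, 7340 bases of exon) was kept in the other 6. Their starts lie 8018 bases apart, and the 2 ADAT2 starts in the RefSeq windows have the same spacing. The Zab libraries held 17 and 16 reads of ADAT2, against 12 to 71 in the other 6. The windows before both starts are shown, at chr6:143450696-143450945 for the upstream start and chr6:143442678-143442927 for the downstream one (GRCh38.p14, minus strand). They hold neither motif, so no letters are in capitals.

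ADAT2 upstream start: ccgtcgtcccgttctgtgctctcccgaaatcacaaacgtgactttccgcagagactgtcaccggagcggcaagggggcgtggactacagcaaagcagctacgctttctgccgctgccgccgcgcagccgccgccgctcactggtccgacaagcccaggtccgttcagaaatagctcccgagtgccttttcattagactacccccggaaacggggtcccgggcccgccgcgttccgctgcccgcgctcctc

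ADAT2 downstream start: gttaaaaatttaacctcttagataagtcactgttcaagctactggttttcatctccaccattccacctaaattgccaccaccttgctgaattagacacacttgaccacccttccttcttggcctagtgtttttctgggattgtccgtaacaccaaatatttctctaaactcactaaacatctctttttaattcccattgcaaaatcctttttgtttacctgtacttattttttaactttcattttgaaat

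The upstream window is 65.2% G and C and the downstream window 35.2%.

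ADAT3 was among the lowest members. It had 2.58 and 5.18 CPM in Zab + MYC O/E, 4.38 and 1.97 CPM in MYC O/E, 7.19 and 7.43 CPM in Zab, and 2.58 and 4.98 CPM in WT. Both Zab values lie above all 6 others, but on 12 and 14 reads. The change in Zab over WT was 0.85 ± 0.47 (SE, log2; limma adjusted p = 0.142), and no comparison was called. ADAT3 (hg19 chromosome 19, 1905398 to 1913446, plus strand) overlaps SCAMP4, a membrane carrier protein gene on the same strand, so reads could be shared and its values are uncertain. SCAMP4 had 62.7 ± 5.66 CPM in Zab + MYC O/E, 78.9 ± 1.55 in MYC O/E, 96.6 ± 7.46 in Zab and 75.5 ± 2.69 in WT (SD, n = 2 each). SCAMP4 was also highest in Zab, with a log2 change of 0.35 ± 0.13 over WT (SE; limma adjusted p = 0.0248).

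ADAT1 makes inosine next to the anticodon of the alanine transfer RNA. It was at 26.8 and 27.6 CPM in Zab + MYC O/E, 23.2 and 25.4 CPM in MYC O/E, 39.0 and 26.6 CPM in Zab, and 28.1 and 28.1 CPM in WT. Apart from replicate 1 of Zab, the libraries lie between 23.2 and 28.1 CPM. No comparison was called, and the log2 changes ran from -0.23 to 0.19 with SEs of 0.22 outside the interaction. The smallest adjusted p for ADAT1 among the 6 comparisons was 0.389, in Zab + MYC O/E over Zab. The counting kept 4 different ADAT1 transcripts over the 8 libraries, with 4963 to 5754 bases of exon (hg19 chromosome 16, minus strand, 75630766 to 75657179).

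**Figure D5:**
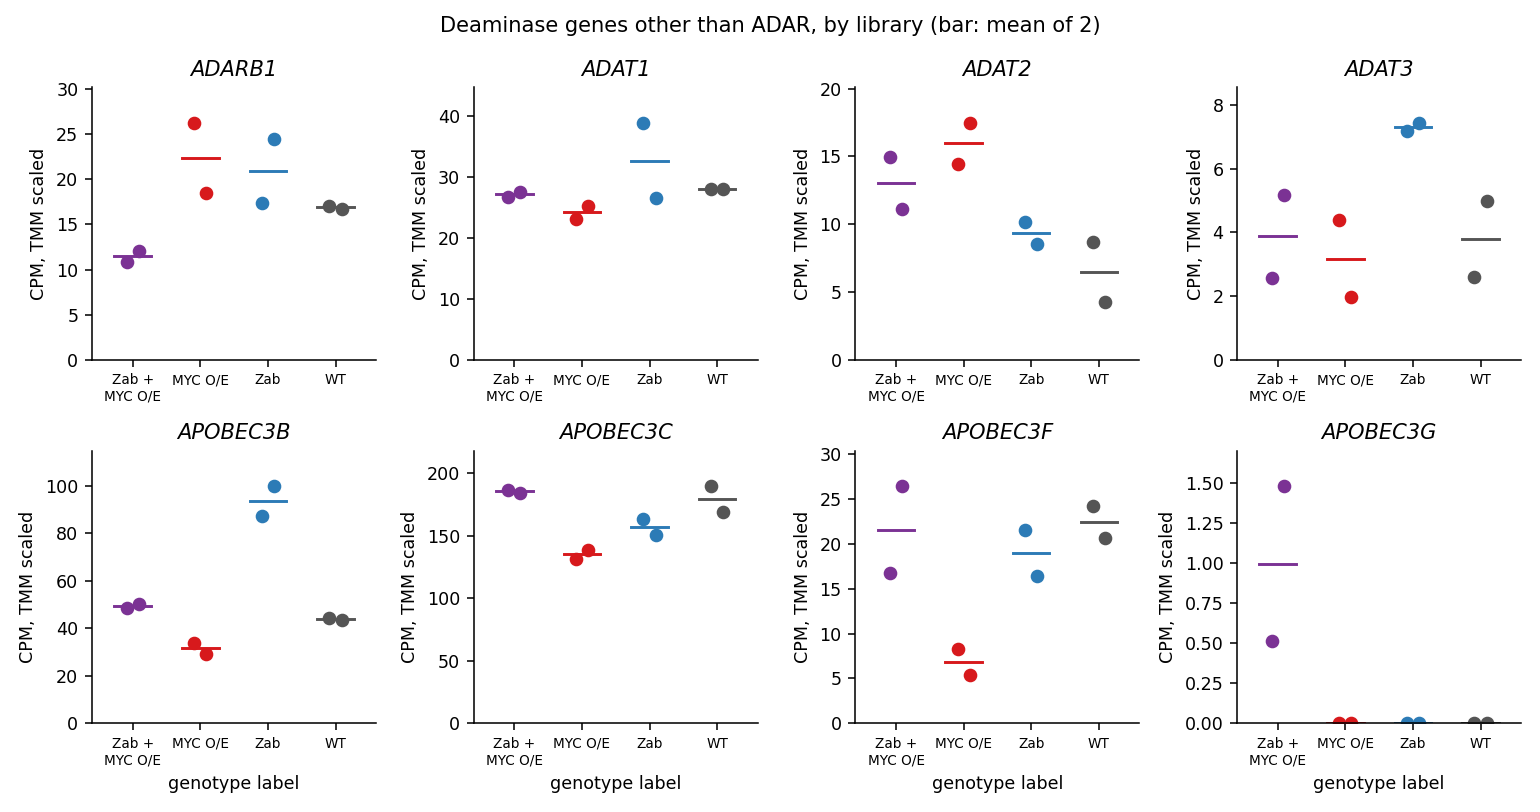
CPM of the 8 deaminase genes other than ADAR in each library, by genotype label, each panel on its own axis from 0. Points are libraries and bars the means of 2. APOBEC3B is highest in Zab and lowest in MYC O/E, APOBEC3F is lowest in MYC O/E, and ADARB1 is lowest in Zab + MYC O/E.

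The APOBEC3 genes lie side by side on the plus strand of chromosome 22, and 4 of them are members. APOBEC3B, a nuclear cytidine deaminase known for mutating tumour DNA, was highest in the libraries labelled Zab. It had 48.7 and 50.1 CPM in Zab + MYC O/E, 34.0 and 29.0 CPM in MYC O/E, 87.5 and 99.8 CPM in Zab, and 44.2 and 43.4 CPM in WT. The 4 groups do not overlap at APOBEC3B. It rose by 1.08 ± 0.16 in Zab over WT (SE, log2; limma adjusted p = 2.30e-06), 2.14-fold in mean CPM. It fell by 0.47 ± 0.16 in MYC O/E over WT (SE; limma adjusted p = 0.0175), a sign that turned on the deposited scale (0.018, adjusted p = 0.932). This call was lost without replicate 1 of WT (adjusted p = 0.0785), replicate 2 of WT (0.0601) or replicate 2 of MYC O/E (0.165). APOBEC3B rose by 0.64 ± 0.16 in Zab + MYC O/E over MYC O/E (SE; limma adjusted p = 0.00158). It fell by 0.91 ± 0.16 in Zab + MYC O/E over Zab (SE; limma adjusted p = 2.58e-05), where the deposited scale gave -0.0051 (adjusted p = 0.977). The difference from WT in Zab + MYC O/E was 0.17 ± 0.16 (SE; limma adjusted p = 0.899), and the interaction was -0.44 ± 0.22 (adjusted p = 0.0966).

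APOBEC3B (hg19 39378352 to 39388784) overlaps APOBEC3A_B, a listed fusion of its upstream neighbour with it, on the same strand, so reads could be split between them. APOBEC3A_B had 8.36 ± 5.63 CPM in Zab + MYC O/E, 6.04 ± 0.195 in MYC O/E, 23.1 ± 7.19 in Zab and 10.1 ± 0.259 in WT (SD, n = 2 each). Its log2 change in Zab over WT was 1.08 ± 0.38 (SE; limma adjusted p = 0.0189), the same size as that of APOBEC3B. APOBEC3A itself had 4 reads over all 8 libraries.

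APOBEC3C, a weaker antiviral member of the family, was per kilobase the most abundant APOBEC3 gene in Zab + MYC O/E, MYC O/E and WT. It had 187 and 184 CPM in Zab + MYC O/E, 132 and 139 CPM in MYC O/E, 163 and 150 CPM in Zab, and 189 and 169 CPM in WT. The MYC O/E libraries lie below all others. APOBEC3C fell by 0.40 ± 0.091 in MYC O/E over WT (SE, log2; limma adjusted p = 0.000775), with the opposite sign on the deposited scale (0.094, adjusted p = 0.397). It rose by 0.45 ± 0.091 in Zab + MYC O/E over MYC O/E (SE; limma adjusted p = 0.000196). The rise of 0.24 ± 0.091 in Zab + MYC O/E over Zab (SE; limma adjusted p = 0.0298) was lost without either replicate of Zab + MYC O/E (adjusted p = 0.132 and 0.0950) or replicate 2 of Zab (0.129). In Zab over WT the change was -0.19 ± 0.091 (SE; limma adjusted p = 0.0878), which passed without replicate 1 of Zab (adjusted p = 0.0432) or replicate 2 of WT (0.0463). APOBEC3C was also called lower in Zab over WT with library totals (-0.39, adjusted p = 0.00077) and on the deposited scale (-0.82, adjusted p = 7.67e-09). The interaction was 0.64 ± 0.13 (SE; limma adjusted p = 0.000153). Per kilobase, APOBEC3C stood 2.29-fold and 2.19-fold above APOBEC3B in Zab + MYC O/E and 2.31-fold and 2.85-fold in MYC O/E. The ratio was 1.11 and 0.899 in Zab and 2.56 and 2.32 in WT, and both Zab ratios lie below the other 6.

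APOBEC3F, a restriction factor of retroviruses, was lowest in the libraries labelled MYC O/E. It had 16.7 and 26.4 CPM in Zab + MYC O/E, 8.24 and 5.41 CPM in MYC O/E, 21.6 and 16.5 CPM in Zab, and 24.2 and 20.6 CPM in WT. The MYC O/E libraries lie below all others, and the other 6 overlap. APOBEC3F fell by 1.60 ± 0.29 in MYC O/E over WT (SE, log2; limma adjusted p = 6.53e-05), so that WT was 3.28-fold above MYC O/E. It rose by 1.52 ± 0.29 in Zab + MYC O/E over MYC O/E (SE; limma adjusted p = 0.00012), 3.16-fold in mean CPM. In Zab over WT the change was -0.23 ± 0.29 (SE; limma adjusted p = 0.536), and on the deposited scale APOBEC3F was called lower (-0.83, adjusted p = 0.0155). The interaction was 1.75 ± 0.42 (SE; limma adjusted p = 0.000906). The calls of APOBEC3F in MYC O/E over WT, in Zab + MYC O/E over MYC O/E and in the interaction held in every alternative run.

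APOBEC3G, a restriction factor of lymphoid cells, had 2 and 6 reads in Zab + MYC O/E and no read in the 6 libraries labelled MYC O/E, Zab or WT. It had too few reads to be tested. A floor of 3 reads over a group is 0.377 CPM in MYC O/E, 0.762 in Zab and 0.527 in WT. The mean in Zab + MYC O/E was 0.998 ± 0.682 CPM (SD, n = 2). Its replicate 1, at 0.515 CPM, lay below the floors of Zab and WT, so no fold difference is given. Most counts were even, as when both reads of a fragment are counted, so these values may rest on fewer molecules than reads. The APOBEC3 genes are near copies of each other in part of their sequence, so some reads could have been placed on the wrong one.

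Among the other deaminase genes, 3 of 13 had enough reads to be tested. DCTD, which deaminates deoxycytidine monophosphate, had 54.3 ± 7.25 CPM in Zab + MYC O/E, 76.2 ± 19.4 in MYC O/E, 72.6 ± 14.5 in Zab and 52.9 ± 7.71 in WT (SD, n = 2 each). DCTD rose in Zab over WT (0.44 ± 0.17, SE, log2; limma adjusted p = 0.0343) and in MYC O/E over WT (0.50 ± 0.17; adjusted p = 0.0188), and its interaction was -0.91 ± 0.24 (adjusted p = 0.00270). CDA, the cytidine deaminase of nucleoside salvage, fell by 1.22 ± 0.49 in MYC O/E over WT (SE; limma adjusted p = 0.0432) on 10 reads in MYC O/E and 25 in WT. CDADC1 was not called. APOBEC3D had 28 reads over all libraries and APOBEC3H 6.

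The gene lists that follow are to be read against the share of all tested genes called, which was 23.8% higher and 25.9% lower in Zab over WT and 22.2% higher and 21.8% lower in MYC O/E over WT. Of 15 partners and regulators, 6 rose and 3 fell with Zab against WT, and in MYC O/E over WT 7 rose and 1 fell. TNPO1, an import receptor that carries ADAR into the nucleus, fell by 0.89 ± 0.072 in Zab over WT (SE; limma adjusted p = 5.46e-11). Of 15 tested mRNAs with known ADAR recoding sites, Zab over WT had 4 higher and 4 lower and MYC O/E over WT had 2 higher and 6 lower. FLNA, an actin crosslinker with such a site, had 2878 ± 3.71 CPM in Zab + MYC O/E, 1883 ± 30.2 in MYC O/E, 5553 ± 80.7 in Zab and 2922 ± 54.1 in WT (SD, n = 2 each). Editing itself cannot be read from counts.

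Of 17 interferon-response genes listed, 10 had enough reads to be tested. In Zab over WT 6 of the 10 were called higher and 1 lower, where 23.8% of all genes were higher and 25.9% lower. Their median log2 change was 1.31, against -0.048 over all genes. IFIT2 had 8.05 CPM in Zab and at most 0.323 in the other groups, so it was tested through its Zab reads. So was IFIT1, with 8.51 CPM in Zab and far less in each other group. The higher calls and the median in Zab over WT thus depend in part on which genes passed the filter. In MYC O/E over WT none of the 10 tested was called higher and 5 were called lower. There 22.2% of all genes were higher and 21.8% lower (median -0.60 for the list, against -0.0052). ISG15, a ubiquitin-like protein, had 8.62 ± 3.12 CPM in Zab + MYC O/E, 6.59 ± 3.06 in MYC O/E, 65.4 ± 11.9 in Zab and 8.46 ± 0.104 in WT (SD, n = 2 each). STAT2, which carries the interferon signal, fell by 1.45 ± 0.15 in MYC O/E over WT (SE, log2; limma adjusted p = 5.92e-09). Of 12 tested sensors of double-stranded RNA and Z-RNA, 5 were higher and 3 lower in Zab over WT, and in MYC O/E over WT 5 were lower and none higher, beside the same shares of all genes. Among these sensors OASL rose by 3.77 ± 0.52 and MAVS by 0.69 ± 0.13 in Zab over WT (SE, log2; limma adjusted p = 1.06e-06 and 7.44e-05). OASL had 35.2 CPM in Zab and at most 1.92 in the other groups, so it was tested through its Zab reads. EIF2AK2, the kinase that ADAR editing is known to keep quiet, fell by 0.81 ± 0.12 in Zab over WT (SE, log2; limma adjusted p = 2.94e-06). Limma called no gene in Zab + MYC O/E over WT from the partner, recoding, interferon or sensor lists. Only 0.601% of all genes were called there, so few or none would be called from lists of this size.

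Of 32 tested transfer RNA modification genes, 6 were called higher and 9 lower in Zab over WT, and MYC O/E over WT had 9 higher and 3 lower, against 49.7% and 44.0% of all genes called in either direction. NSUN2, a transfer RNA methyltransferase, rose by 0.80 ± 0.087 in MYC O/E over WT (SE, log2; limma adjusted p = 1.56e-08). Of 13 genes that repair uracil in DNA, the product of the APOBEC3 enzymes, or act beside that repair, Zab over WT had 3 higher and 5 lower and MYC O/E over WT had 5 higher and 2 lower, beside the same 49.7% and 44.0%. UNG, the main uracil glycosylase, had 63.9 ± 3.21 CPM in Zab + MYC O/E, 157 ± 14.4 in MYC O/E, 80.4 ± 10.3 in Zab and 57.8 ± 2.78 in WT (SD, n = 2 each). In MYC O/E UNG rose by 1.42 ± 0.13 over WT (SE, log2; limma adjusted p = 5.56e-10). APOBEC3B, APOBEC3C and APOBEC3F fell there, but on the deposited scale APOBEC3B and APOBEC3C turned to 0.018 and 0.094. REV3L, the polymerase subunit that passes damaged bases, fell by 2.69 ± 0.27 in Zab over WT (SE, log2; limma adjusted p = 3.53e-09). In Zab + MYC O/E over WT 1 of the 13 repair genes was called, APEX1, where 0.601% of all genes were. Its log2 change was -0.28 ± 0.067 (SE; limma adjusted p = 0.0482).

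The genes most like ADAR over the 8 libraries were APPBP2, DERA, USO1, RGS7 and LIMA1, by Pearson correlation of log2(CPM + 1) over the 10760 tested genes that averaged 5 CPM or more. Their r with ADAR ran from 0.992 to 0.995, and 6 genes had an r over 0.99. The 8 libraries fall into 4 that are high and 4 that are low in ADAR, so r measures mainly that split and is given as a description. None of the 5 differed by as much as ADAR. LIMA1, an actin-binding protein, had 208 ± 22.2 CPM in Zab + MYC O/E, 76.4 ± 6.79 in MYC O/E, 75.5 ± 6.69 in Zab and 197 ± 6.85 in WT (SD, n = 2 each). WT was 2.61-fold above Zab and 2.57-fold above MYC O/E at LIMA1, and over the 5 genes these ratios ran from 1.69 to 3.15 and from 1.74 to 3.54.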

How the data were processed

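Per the labels' protocols, RNA carrying 4-thiouridine was extracted with Trizol and made into libraries with a commercial RNA-seq kit. STAR, Trim Galore 0.6.6, bedtools 2.29.2 and SAMtools 1.11 are named in the submitters' processing notes, with no roles, as are the builds hg19 and dm6. Per the file headers, the authors ran HOMER's analyzeRepeats to count tags in the exons of RefSeq coding genes (hg19), on the opposite strand, keeping 1 transcript a symbol. The deposited values are a signal, in which each library's reads were multiplied by a factor of its own. What set that factor is not given in the labels or headers. Dividing by the library's step, 0.204 to 0.259, gave whole reads within 0.02 for at least 99.9% of values.

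The deposited values were TMM-scaled to CPM (edgeR 4.0.16) and tested as log2(CPM + 1) with limma 3.58.1 (trend) in R 4.3.3. All 8 libraries entered 1 fit with a term per genotype label, leaving 4 residual degrees of freedom. Limma drew each gene's variance towards a trend shared by genes of like level, so its p-values rest on more than these 4. Genes had to pass filterByExpr at 10 reads, and 11985 did. P-values were adjusted by Benjamini-Hochberg over all of them. Fold changes on the log2(CPM + 1) scale understate changes of low genes, and -fold values are ratios of mean CPM. With 2 libraries a group, an exact permutation test cannot give a two-sided p under 0.333, so none was made. The recovered reads were also tested with edgeR's quasi-likelihood test and DESeq2 1.42.0. On simulated data for MYC O/E over WT, 11873 genes were tested. Limma recovered 98% of genes changed by log2 1 and 42% of those changed by 0.5, with no false call. Only 100 genes were changed at each size, as many up as down, and all libraries were scaled by the same factor. The lack of false calls thus does not cover errors of scaling in the data, where 44.0% of genes were called. The changes were planted only in genes with more reads on average than ADARB1, ADAT1, ADAT2, ADAT3 and APOBEC3F had. For those members the shares recovered do not apply. Replicates of a label differed by a chi-square per gene of 1.99 to 2.05, where independent reads counted in pairs give 2, and whether they are separate preparations was not tested. A fit with the WT and Zab + MYC O/E pairs as 1 sample each was among the alternatives. The MYC O/E and Zab pairs, with like chi-squares, were not joined in any fit. The members and all gene lists were chosen with earlier results of these data known. Named genes are all members, MYC, genes within 250 kb of ADAR, the 5 genes most correlated with ADAR, and up to 3 called genes of a list with the smallest p. SCAMP4, APOBEC3A_B and the counts of further deaminases were added because they overlap or belong to the family. One listed sensor was matched under its older symbol through the RefSeq table. Some genes of these lists are not reported here.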

Additional observations from a re-analysis of the deposited data

Results flagged for a closer look

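For 4 members the difference of Zab + MYC O/E from MYC O/E was unlike that of Zab from WT, as the libraries are labelled, by limma's test of that difference (2 libraries a group). The difference was 12.08 on the log2 scale for ADAR, where Zab + MYC O/E lay above MYC O/E in both libraries and Zab lay below WT in both. It was 1.75 for APOBEC3F and 0.64 for APOBEC3C, and -1.16 for ADARB1, which was not called under 2 of the other scalings (adjusted p = 0.0533 with library totals and 0.0855 with the per-library factor left in). The Zab + MYC O/E libraries had 757 CPM of MYC, against 6570 in MYC O/E and 760 in WT, so their label is in doubt, and with it what these differences mean. Of all tested genes, 53.0% had such a difference. The causes, an exchange of labels or reads from a Zab construct among them, were not tested.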

How the results depend on the processing

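Over 48 member results and 1067 values from the alternatives, 993 kept direction and side of the threshold, 25 lost the call, 17 gained one and 32 changed sign. The ADAR changes of MYC O/E and of Zab from WT and those of Zab + MYC O/E from MYC O/E and from Zab kept sign and call in every alternative run. On the deposited scale, where the per-library factor stays in, the log2 change for Zab over WT was -0.33 at ADARB1, -0.42 at ADAT1 and -0.033 at ADAT2. For MYC O/E over WT it was 0.28 at ADAT1, 0.17 at ADAT3, 0.018 at APOBEC3B and 0.094 at APOBEC3C. For Zab + MYC O/E it was 0.21 at ADAR, 0.23 at ADAT1 and 0.18 at APOBEC3F over WT, -0.050 at ADAT1 over MYC O/E, 0.060 at ADARB1 and 0.65 at ADAT1 over Zab, and 0.37 at ADAT1 in the interaction. With library totals ADAT1 had -0.0071, 0.00028 and 0.26 in Zab over WT, Zab + MYC O/E over Zab and the interaction. On the deposited scale 4 members were called in Zab over WT (APOBEC3C and APOBEC3F gained) and 3 in Zab + MYC O/E over WT, where the genes called were 1752 (1749 higher) in place of 72 and 9044 (8807 higher) in place of 5983 over Zab. The split of higher and lower calls on that scale was 575 and 6882 in Zab over WT, 5838 and 1149 in MYC O/E over WT, 1853 and 4006 in Zab + MYC O/E over MYC O/E, and 5044 and 1837 in the interaction. With library totals the same splits were 1888 and 4149, 2391 and 2893, 3107 and 2283, and 4590 and 2134, with 4285 and 1742 in Zab + MYC O/E over Zab and 19 and 32 over WT. In Zab + MYC O/E over WT the genes called were 22 with no filter, 146 with edgeR, 118 with DESeq2, 195 with edgeR on read pairs, and 194 without both Zab libraries, an alternative chosen after seeing the data. Each of the last 4 called 1 member, ADAR. With the WT and Zab + MYC O/E pairs as 1 sample each, genes called were 3949 in Zab over WT, 3431 in MYC O/E over WT, 0 in Zab + MYC O/E over WT, 3549 over MYC O/E and 3938 over Zab, with 2 members called over Zab. Leaving out 1 library gave 3 to 5 members called in MYC O/E over WT, 0 to 1 in Zab + MYC O/E over WT (22 to 155 genes) and 2 to 4 in Zab + MYC O/E over Zab. It gave log2 ranges of -0.082 to 0.45 at ADAT1 in Zab over WT and -0.64 to 0.22 at ADAT3 in MYC O/E over WT. Zab + MYC O/E over WT had ranges of -0.39 to 0.23 at APOBEC3F, -0.37 to 0.42 at ADAT3 and -0.032 to 0.14 at APOBEC3C, and over MYC O/E -0.20 to 0.66 at ADAT3. In Zab + MYC O/E over Zab they were -0.16 to 0.47 at APOBEC3F and -0.50 to 0.040 at ADAT1, and in the interaction -0.30 to 0.24 at ADAT1. A left-out library leaves its group with 1, assumed to vary like the others. The causes were not tested.

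Replicate numbers did not pair the libraries: deviations of same-numbered libraries correlated at -0.0126 to -0.00189 over 8467 genes. With the replicate block the genes called were 5968, 5285, 77, 5338, 5957 and 6359 in the 6 comparisons, and the members called 2, 5, 0, 5, 4 and 4, as without it. Depth limits ADAT3, APOBEC3G and ADAT2 most, with under 72 reads in each library.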
